A study of Mus musculus with 2 samples.

Results

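The genes described here are a list of 36 interferon-stimulated genes, listed by name with no threshold on a measured value, though with earlier results of these data known. Of these, 34 were found by symbol among the 32285 genes of the deposited matrices, and Mx1 and Mx2 are not analysed here. Their unique molecular identifiers (UMIs, counts of single captured RNA molecules) were summed per cell and expressed as a share of the cell's UMIs. Cells came from the prostates of wild-type male C57BL6 mice, with no age, treatment or further allele given in the labels. There were 2 libraries of 1 sample each, the ventral lobes, prepared with 10x Genomics 3′ kit version 2, and the proximal and periurethral region next to the urethra, prepared with version 3. Both tissues were dissociated with papain and then TrypLE at 37°C. With 1 library per region there is no replicate check and no test is given, and the effects of region and of kit cannot be told apart. Ranges in parentheses after a value are exact 95% intervals for counting error, which leave out differences between animals and preparations.

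Interferons are secreted proteins that cells release on sensing viral or damaged nucleic acid. Type I and type III interferons bind their receptors on neighbouring cells and act through the kinases Jak1 and Tyk2. A complex that holds Stat2 and Irf9 then binds the interferon-stimulated response element, while interferon gamma acts at the gamma-activated site. The listed genes cover the factors (Stat2, Irf9, Irf7, Irf1), sensors of viral RNA and DNA (Ifih1, Dhx58, Zbp1) and inhibitors of viral translation and RNA (the Ifit and Oas families). They also cover the ubiquitin-like modifier Isg15 with its protease Usp18, guanylate-binding proteins, the virion tether Bst2 and the antiviral enzymes Rsad2 and Cmpk2. In barrier epithelia a low level of these genes without infection is well known.

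Promoter sequence is shown for 4 members whose levels differed in the results that follow. Ifit3 and Ifit1 are neighbours on chromosome 19 that were not spread over luminal cells in the same way, Isg15 was high in the same cells as most other members, and Irf1 was among those that followed the other members least. The sequences are from RefSeq (build GRCm38.p6, the assembly also called mm10), run 5′ to 3′ on the gene's strand, and cover 220 bases that end 30 bases before the annotated start. Capitals mark matches to the response element, searched on both strands as GAAA, 2 bases of any kind and GAAA again, or to the gamma-activated site, searched as TTCNNNGAA, which reads the same on both strands.
Ifit3, chr19:34583279-34583498, plus strand: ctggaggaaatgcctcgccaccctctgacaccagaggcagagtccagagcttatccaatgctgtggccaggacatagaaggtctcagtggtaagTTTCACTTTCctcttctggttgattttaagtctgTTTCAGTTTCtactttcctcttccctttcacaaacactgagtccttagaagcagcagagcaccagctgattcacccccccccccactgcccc
Ifit1, chr19:34640639-34640858, plus strand: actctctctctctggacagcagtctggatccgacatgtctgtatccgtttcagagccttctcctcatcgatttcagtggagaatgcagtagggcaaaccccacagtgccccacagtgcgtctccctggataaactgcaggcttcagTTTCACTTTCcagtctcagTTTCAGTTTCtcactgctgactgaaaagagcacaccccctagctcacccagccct
Isg15, chr4:156200849-156201068, minus strand: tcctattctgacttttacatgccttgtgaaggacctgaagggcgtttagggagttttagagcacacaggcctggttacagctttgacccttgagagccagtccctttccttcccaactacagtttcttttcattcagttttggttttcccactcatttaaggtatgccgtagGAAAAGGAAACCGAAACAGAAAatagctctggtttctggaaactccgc
Irf1, chr11:53769764-53769983, plus strand: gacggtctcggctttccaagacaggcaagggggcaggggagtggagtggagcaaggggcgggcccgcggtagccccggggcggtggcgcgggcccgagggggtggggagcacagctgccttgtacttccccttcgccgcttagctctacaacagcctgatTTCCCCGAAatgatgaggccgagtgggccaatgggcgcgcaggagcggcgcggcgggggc
Ifit3 and Ifit1 each held 2 matches to the response element, with the same letters in both genes, and Isg15 held 3 that overlap one another. The Irf1 promoter shown held no match to the response element and 1 to the gamma-activated site, and a second listed promoter of Irf1 held neither. Ifit3b, a near copy of Ifit3, held 2 matches to the response element. Its 250 bases before the start shared an unbroken run of 169 bases with those of Ifit3. Over the list, 27 members had a promoter in the RefSeq table, and 13 of them, 48.1%, held the response element in the 250 bases before a start. Among all 27025 genes listed there, 936 held it, 3.46%. The gamma-activated site was found for 5 of the 27 members, 18.5%, and for 8.13% of all genes. Bst2 had 1 place where the 2 motifs overlapped. A match is a description of letters and not evidence that a factor binds.

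Filters on genes per cell and mitochondrial RNA left 1988 ventral cells (median 25759 UMIs) and 3705 proximal cells (median 15260 UMIs), and 0 barcodes occurred in both libraries. Cells were clustered within each library without the members and the other genes of the pathway, and clusters were called after the marker lists they resembled, so class names here are rebuilt and may differ from those of the study. The ventral library held 1466 distal luminal-like, 91 proximal luminal-like and 141 basal-like cells. The proximal library held 693, 1100 and 930 of these, with 516 fibroblast-like, 79 macrophage-like, 59 endothelial-like, 27 T or NK-like, 26 seminal vesicle-like and 6 smooth muscle-like cells. A cluster of 236 ventral cells with the neutrophil gene S100a9 among its leading genes and one of 269 proximal cells led by haemoglobin genes stayed unnamed. The ventral one resembled the distal luminal list most, with 5 of its markers found, and the proximal one the proximal luminal list, with 11. The doublet caller marked 0.193% of cells and so has not worked, and doublets must be taken as still present. Sbp and Spink1, secretory genes of distal luminal cells, took 45.0% of UMIs in ventral distal luminal-like cells and 16.1% in proximal ones. In the unnamed ventral cluster they took 51.0%. They also took 36.1% in ventral T or NK-like and 17.8% in ventral proximal luminal-like cells, and exceeded 5% in 14 of 25 and 32 of 91 of these cells. Their source in these cells was not tested, and they lower the share left to all other genes.

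The members together took a small part of the RNA, and in the proximal library endothelial-like, immune and fibroblast-like cells held more of it than epithelial classes. There their summed level was 3307 UMIs per 1000000 UMIs of the class (CPM; 3176 to 3442) in endothelial-like cells, 2063 (1975 to 2155) in macrophage-like and 1183 (1154 to 1212) in fibroblast-like cells. The named epithelial classes lay lower, at 827 (817 to 837) in proximal luminal-like, 581 (573 to 589) in distal luminal-like, 411 (371 to 454) in seminal vesicle-like and 308 (298 to 318) in basal-like cells. The intervals of these 7 classes did not overlap. The 6 smooth muscle-like cells stood at 552 CPM (389 to 761), within the range of the epithelial classes. T or NK-like cells stood at 1669 CPM, but 1 of the 27 cells held 49.6% of their member UMIs, and without it the level was 1004. Among ventral cells the macrophage-like were highest at 840 (693 to 1010), followed by proximal luminal-like cells at 440 (405 to 477). Ventral T or NK-like cells at 349 (292 to 415), basal-like cells at 342 (301 to 387) and distal luminal-like cells at 308 (303 to 314) could not be ordered beyond counting error. At full depth 2.45% of proximal luminal-like and 9.78% of basal-like cells of the proximal library had no member UMI.

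**Figure D1:**
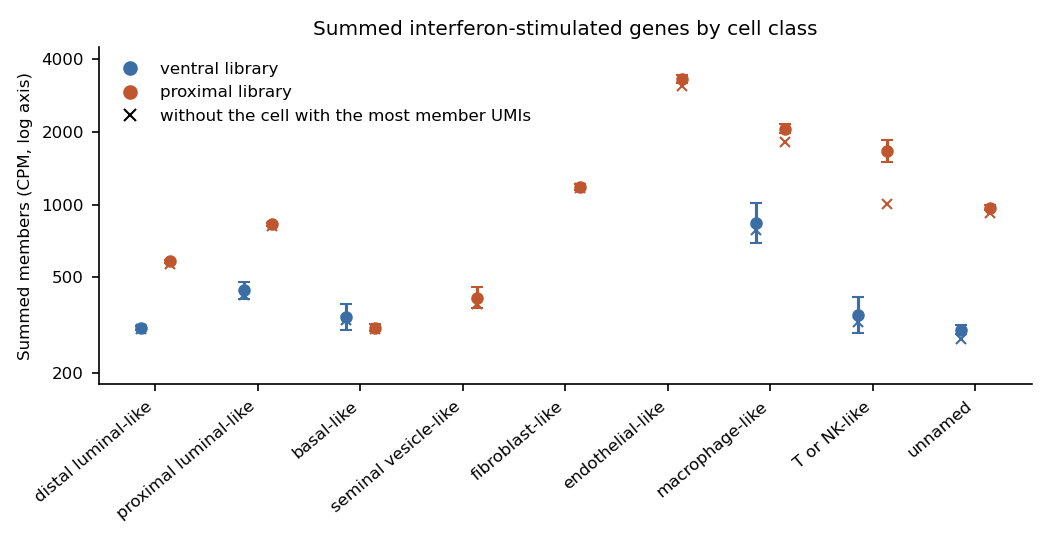
Summed level of the 34 members by cell class, in CPM on a log axis, for the ventral (blue) and proximal (orange) libraries; bars are exact 95% intervals for counting error and crosses leave out the cell with the most member UMIs. The 6 smooth muscle-like cells are not drawn. Endothelial-like cells are highest at 3307 CPM and proximal basal-like cells lowest of the proximal library at 308 CPM, and the T or NK-like value moves from 1669 to 1004 CPM without 1 cell.

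The sum drew on several genes, in shares that differed between the libraries. Ifi27, an interferon-induced membrane protein, gave 16.1% of the member UMIs of both libraries together, Bst2 10.7%, Isg15 8.15%, Irf7 7.85%, Ifi35 6.80% and Irf1 6.01%. In the ventral library alone Ifi27 gave 25.5%, Bst2 14.7% and Ifi35 10.1%. Isg15 and Irf7 gave 2.72% and 2.96% there, against 9.36% and 8.93% in the proximal library. In the proximal library 14 members were highest in endothelial-like cells, 9 in macrophage-like, 7 in T or NK-like and 3 in fibroblast-like cells, and none in a named epithelial class. The T or NK-like class is the one in which 1 cell held 49.6% of member UMIs. In the ventral library, where no endothelial-like or fibroblast-like class was found, 12 members were highest in macrophage-like, 9 in proximal luminal-like, 6 in basal-like and 4 in T or NK-like cells. These ventral values rest on few UMIs: among the 12, Dhx58, Parp14, Zbp1 and Cmpk2 had 1 UMI each and Rsad2 and Gbp3 had 3 in that class, and Oas2 had 0 UMIs in the whole library. Gbp2, a GTPase that attacks vacuoles of pathogens, was at 458 CPM in endothelial-like cells, 37.5 in fibroblast-like, 5.99 in proximal luminal-like and 0.982 in distal luminal-like cells. Its relatives Gbp3 and Gbp7 were at 99.4 and 81.5 CPM in endothelial-like cells and at 0.801 and 1.54 in proximal luminal-like cells. The next highest values in the proximal library were in immune classes, with Gbp2 and Gbp7 at 46.5 and 18.6 CPM in T or NK-like cells and Gbp3 at 25.4 in macrophage-like cells. The T or NK-like class held only 215085 UMIs, so its 2 values rest on few UMIs. They do not place it above fibroblast-like cells, where Gbp2 was at 37.5 CPM. In the ventral library, which has no endothelial-like class, the highest values of Gbp2, Gbp3 and Gbp7 were 8.13 CPM in T or NK-like, 22.3 in macrophage-like and 5.20 in proximal luminal-like cells, from 3, 3 and 7 UMIs.

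Of the 34 members, 4 were highest in macrophage-like cells of both libraries: Bst2, Oasl1, Trim25 and Lgals3bp. Bst2 was at 341 CPM (306 to 380) in proximal and 298 (213 to 405) in ventral macrophage-like cells, and Oasl1, a brake on Irf7 translation, at 307 and 66.9, with 34.8% of the proximal UMIs from 1 cell and 9 UMIs in the ventral class. Trim25 was at 137 and 81.8 CPM, from 135 and 11 UMIs, and Lgals3bp at 70.1 and 96.7 CPM, from 69 and 13 UMIs. For Lgals3bp the unnamed proximal cluster was close, at 62.1 CPM. In no named epithelial class did Oasl1 exceed 18.9 CPM, the value in seminal vesicle-like cells. Irf1, an early transcription factor of the interferon gamma response, was at 269 CPM (256 to 284) in fibroblast-like and 268 (232 to 308) in endothelial-like cells. Stat2 was likewise at 83.4 CPM in fibroblast-like and 80.1 in endothelial-like cells, against 11.8 in proximal luminal-like cells. Ifit3 was at 83.7 CPM in T or NK-like cells, and all 18 of its UMIs there came from 1 cell. In macrophage-like cells Ifit3 was at 89.4 CPM and 1 cell held 64.8% of it. Samd9l, an antiviral restriction factor, departed from the rest of the list among epithelial cells: it was at 99.9 CPM (80.8 to 122) in seminal vesicle-like cells, close to the 102 (80.2 to 128) of endothelial-like cells.

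**Figure D2:**
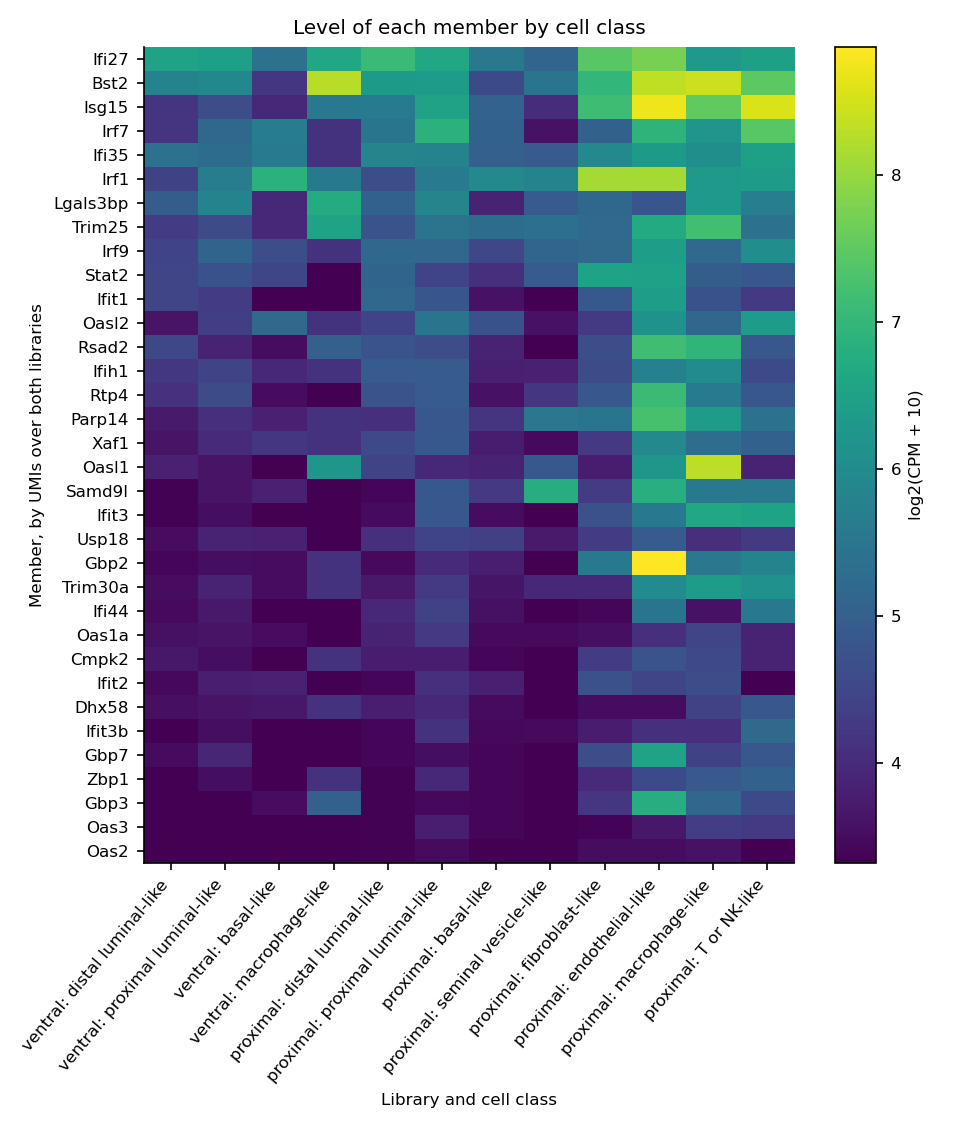
Level of each of the 34 members by library and cell class as log2(CPM + 10), members ordered by their UMIs over both libraries. Gbp2 in endothelial-like cells (458 CPM) is the brightest field, Oasl1 is bright in macrophage-like cells (307 CPM in the proximal library), and Samd9l stands out in seminal vesicle-like cells (99.9 CPM).

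Proximal luminal-like cells carried more member RNA than distal luminal-like cells by CPM. The ratio of sums was 1.42 (1.40 to 1.45) in the proximal library and 1.43 (1.31 to 1.55) in the ventral one. This ratio depends on the total it is scaled to: with the 20 most abundant genes of either library left out of the totals, the log2 ratio went from 0.51 to 0.16 in the proximal library and from 0.51 to -0.16, the opposite direction, in the ventral library. Under that scaling the median of all genes moved from 0.05 to -0.09 and from 0.39 to 0.03. Of 32 members with at least 50 UMIs in the 2 proximal sums, 4 were at least 2-fold higher in proximal luminal-like cells, counted on log2(CPM + 10), against 9.41% of all genes compared, and 0 were lower, against 4.35%. The members' median log2 ratio was 0.41 and that of all genes 0.05. Of 24 ventral members 1 was higher, against 10.1% of all genes, and 0 were lower, against 0.311%. There the members' median of 0.31 lay below the 0.39 of all genes. The scale with 10 CPM added understates ratios of low genes. With 1 CPM added 14 of 32 proximal members were higher, against 20.5% of all genes, with medians of 0.87 and 0.12, and 9 of 24 ventral members, against 29.4%, with medians of 0.63 and 0.66.

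The factors differed from each other between these classes. Irf7, the factor that amplifies interferon production, reached 108 CPM (104 to 112) in proximal luminal-like cells and 34.3 (32.3 to 36.3) in distal luminal-like cells of the proximal library, a ratio of 3.15 (2.95 to 3.37). Ventral levels were 26.0 and 8.12 CPM, a ratio of 3.20 (2.19 to 4.55). Irf1 was also higher in proximal luminal-like cells of both libraries, with ratios of 2.47 (2.22 to 2.74) and 3.52 (2.60 to 4.67). Stat2 went the other way in the proximal library, at 11.8 against 24.3 CPM, a ratio of 0.484 (0.427 to 0.548). Irf9, its partner, was at 25.4 and 26.9 CPM there, and the interval of the ratio, 0.859 to 1.04, holds 1. In the ventral library Stat2 was at 16.3 against 12.4 CPM, a ratio of 1.32 (0.819 to 2.02), and Irf9 at 24.5 against 11.7 CPM, a ratio of 2.09 (1.42 to 2.98).

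Among the effectors the neighbours Ifit3 and Ifit1, shown above with the same pair of promoter matches, were distributed differently. Ifit3 was at 18.5 CPM (17.0 to 20.1) in proximal luminal-like cells of the proximal library and at 1.19 (0.851 to 1.62) in distal luminal-like cells, a ratio of 15.5 (11.3 to 22.0). Ifit1 was at 17.8 CPM (16.4 to 19.4) and 26.0 (24.4 to 27.8), a ratio of 0.684 (0.614 to 0.761). A single distal luminal-like cell held 24.8% of the Ifit1 UMIs of its class; without the highest cell of each class the levels were 15.4 and 19.6 CPM and the ratio 0.782 (0.694 to 0.881). Ventral distal luminal-like cells held 491 UMIs of Ifit1, 12.4 CPM, and 7 of Ifit3, 0.177 CPM. Thus both libraries showed Ifit1 with little Ifit3 in their distal luminal-like cells. Of the sequence windows of read length, 91 bases, in the last 500 bases of the Ifit3 transcript, 6.34% also occur in Ifit3b (GENCODE vM21), so some reads could not be assigned to one copy; Ifit3b itself was at 7.53 and 0.685 CPM, the same direction.

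Samd9l gave the highest luminal ratio of the list, 18.9 against 0.714 CPM in the proximal library, a ratio of 26.5 (17.6 to 41.6). Oasl2, a relative of the 2′-5′ oligoadenylate synthetases, was at 34.3 against 11.6 CPM, a ratio of 2.96 (2.63 to 3.33), while Oasl1 was at 5.29 against 11.9, a ratio of 0.445 (0.369 to 0.535). Isg15 was at 81.4 against 39.3 CPM, a ratio of 2.07 (1.94 to 2.21). Ifi27 was at 91.1 against 127 CPM, a ratio of 0.720 (0.687 to 0.756), so the member with the most UMIs ran against the sum. Oas1a was at 8.91 against 4.41 CPM, but 42.2% of its windows of read length also occur in Oas1g, and its values are uncertain. Rsad2, known as viperin, was at 14.9 against 16.6 CPM in the proximal library, a ratio of 0.897 (0.792 to 1.02). It was at 4.46 CPM in ventral proximal luminal-like and 13.1 in ventral distal luminal-like cells, a ratio of 0.340 (0.124 to 0.745) that rests on 6 UMIs in the former.

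**Figure D3:**
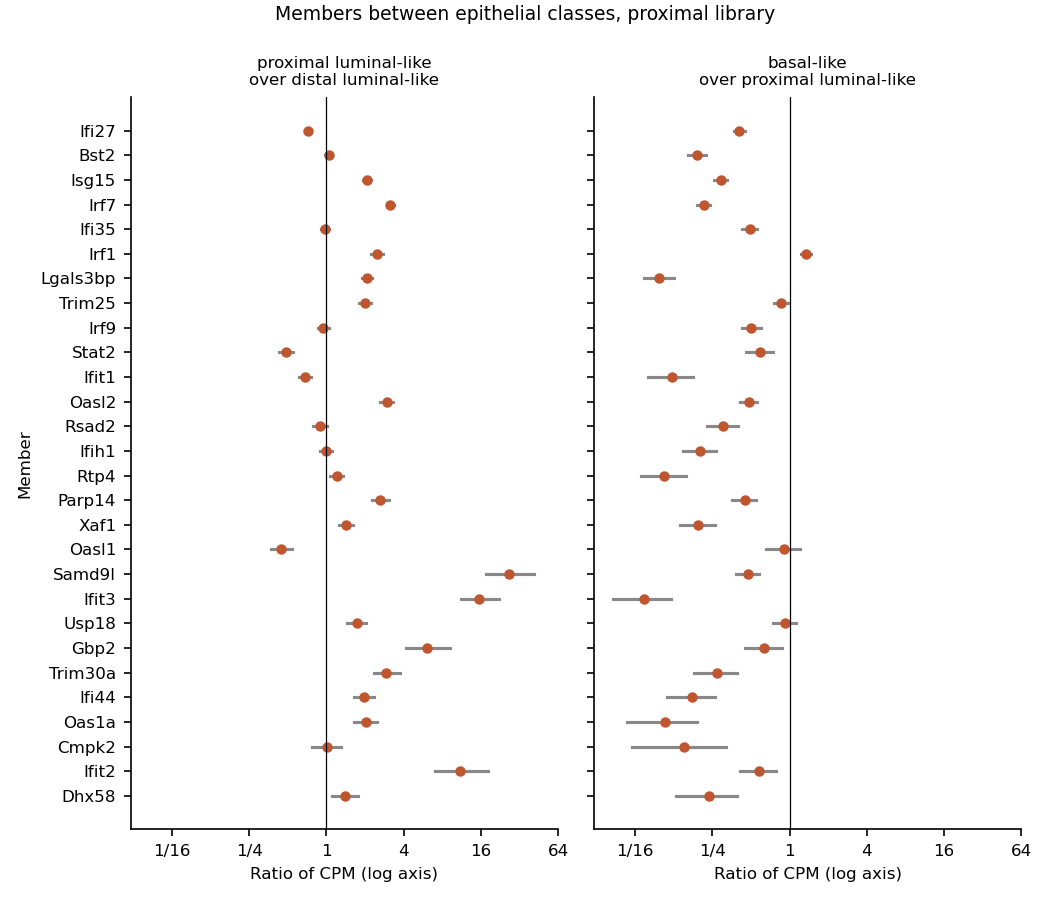
Ratio of CPM between epithelial classes of the proximal library for the 28 members with the most UMIs, on a log axis; points are ratios, bars exact 95% intervals for counting error, and the vertical line marks 1. On the left Samd9l (26.5) and Ifit3 (15.5) lie far right and Stat2 (0.484) and Oasl1 (0.445) left of the line; on the right all but Irf1 (1.34) lie below 1, and the intervals of Usp18 and Oasl1 reach it.

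Basal-like cells held less member RNA than proximal luminal-like cells. The sum was 308 against 827 CPM in the proximal library, a ratio of 0.373 (0.360 to 0.385), and in the ventral library 342 against 440 CPM, a ratio of 0.777 (0.667 to 0.903). Without Ifi27, Bst2 and Isg15 the ventral log2 ratio was 0.00. The members left were not even, since Irf1 was at 109 CPM in basal-like against 40.1 in proximal luminal-like cells. Lgals3bp went the other way, at 5.51 against 46.8 CPM. In the proximal library 10 of 32 members were at least 2-fold lower in basal-like cells, against 3.23% of all genes, and 0 were at least 2-fold higher, against 3.87%. The median log2 ratio was -0.67 for members and -0.01 for all genes. Only 6 members reached 50 UMIs in the ventral comparison; 3 were lower, against 15.0% of all genes, and 1 was higher, against 9.54%, with medians of -0.37 and -0.09.

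Lgals3bp, a secreted glycoprotein that binds galectin 3, had the lowest log2(CPM + 10) difference of this comparison: 4.59 CPM in basal-like against 47.5 in proximal luminal-like cells of the proximal library, a ratio of 0.0966 (0.0730 to 0.126). The ventral values were 5.51 and 46.8 CPM, a ratio of 0.118 (0.0311 to 0.317) that rests on 4 basal UMIs. Bst2 was at 13.9 against 73.5 CPM, a ratio of 0.189 (0.162 to 0.221), and at 8.27 against 50.5 CPM in the ventral library. Irf7, Isg15, Ifit3 and Rtp4 had ratios of 0.213, 0.289, 0.0728 and 0.105 in the proximal library. Irf1 was higher in basal-like cells of both libraries, at 50.7 against 37.8 CPM (ratio 1.34, 1.22 to 1.48) and at 109 against 40.1 CPM (ratio 2.71, 1.90 to 3.91). In the ventral library Irf7 and Ifi35 also lay on the basal side, at 41.4 against 26.0 CPM (ratio 1.59, 0.943 to 2.67) and 38.6 against 29.0 CPM (ratio 1.33, 0.790 to 2.22), with intervals that hold 1. The 6 members compared there thus split into 3 with higher and 3 with lower values. Usp18 and Oasl1 had ratios of 0.918 (0.748 to 1.12) and 0.898 (0.657 to 1.21), within counting error of 1.

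Between the libraries, luminal classes held more member RNA in the proximal library and basal-like cells did not. The ratio of proximal to ventral sums was 1.88 (1.73 to 2.04) in proximal luminal-like, 1.89 (1.84 to 1.93) in distal luminal-like and 0.901 (0.792 to 1.03) in basal-like cells. In log2, leaving the 20 most abundant genes out of the totals moved the distal luminal value from 0.91 to 0.31 and the proximal luminal value from 0.91 to 0.62. For proximal luminal-like cells 5 of 32 members were 2-fold or more above the ventral level, against 10.6% of all genes, and 0 were lower, against 5.34%. In distal luminal-like cells 2 of 27 were higher, against 8.08%, and 0 lower, against 0.388%. In basal-like cells 2 of 19 were higher, against 17.3%, and 0 lower, against 8.02%. The members' median log2 ratios were 0.47, 0.50 and -0.02, beside 0.11, 0.29 and 0.16 for all genes. With 1 CPM in place of 10 added before the log, 16 of 32, 11 of 27 and 5 of 19 were higher, against 26.6%, 30.1% and 32.1% of all genes, in proximal luminal-like, distal luminal-like and basal-like cells.

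Isg15 and Irf7 had the largest ratios in both luminal classes by log2(CPM + 10). Isg15 was at 81.4 CPM in proximal luminal-like cells of the proximal library and 14.9 in those of the ventral library, a ratio of 5.48 (3.54 to 8.99), and at 39.3 and 8.17 CPM in distal luminal-like cells, a ratio of 4.81 (4.26 to 5.45). For Irf7 the ratios were 4.15 (2.98 to 5.97) and 4.22 (3.73 to 4.79). In basal-like cells Irf7 went the other way, at 23.0 CPM in the proximal and 41.4 in the ventral library, a ratio of 0.557 (0.382 to 0.840). Irf1 did the same, with a ratio of 0.466 (0.368 to 0.596). For Lgals3bp and Irf9 counting error did not separate proximal luminal-like cells of the 2 libraries, with ratios of 1.02 (0.789 to 1.33) and 1.04 (0.733 to 1.52). Ifit3 and Samd9l rest on 2 and 3 ventral UMIs in this class, with ratios of 12.4 (3.43 to 103) and 8.48 (2.89 to 41.2).

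Clusters within a class also differed. Among proximal luminal-like cells of the proximal library, a cluster of 77 cells led by the secretory genes Prol1 and Pip had a sum of 1395 CPM (1345 to 1447). The other clusters of the class stood at 898 (led by Clca1 and Areg), 782 (led by Tff3) and 709 CPM (with Arl14 among its leading genes). The unnamed cluster led by haemoglobin genes had 971 CPM. Distal luminal-like clusters of the proximal library ran from 296 CPM, in the one led by Ren1, through 386 and 461 to 709 in the one led by Msmb and 767 in the one led by Sbp and Spink1. The last of these therefore exceeded the Arl14 cluster of the proximal luminal-like class. Basal-like clusters were at 470 CPM, with Trp63 leading, and at 300 and 263. Distal luminal-like clusters of the ventral library lay between 204 and 331 CPM, below all but 1 of those named distal luminal-like in the proximal library.

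The same genes did not carry each cluster. Ifit1 was at 47.5 CPM in the cluster led by Sbp and Spink1 and 36.5 in the one led by Msmb, where 1 cell held 54.1% of its UMIs, and at 0.733 in the one led by Ren1. Ifit3 stayed between 0.314 and 2.46 CPM in all 5 distal luminal-like clusters of the proximal library, and between 16.6 and 37.8 in the 4 proximal luminal-like clusters. Irf1 was at 99.8 CPM in the Clca1 cluster and 10.7 in the Arl14 cluster, while Irf7 was at 117 and 93.0 in the same clusters. Irf1 was at 103 CPM and Isg15 at 50.2 in the basal-like cluster led by Trp63, against 22.6 and 5.92 in the basal-like cluster led by Ivl, a gene of squamous differentiation.

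Cells were thinned to 2000 UMIs each to compare their spread at 1 depth, which left out 20 of 1100 proximal luminal-like, 26 of 693 distal luminal-like and 8 of 930 basal-like cells of the proximal library. The mean was 1.71 member UMIs of 2000 in proximal luminal-like cells. Distal luminal-like cells held 1.09 and basal-like cells 0.632. No member UMI was found in 33.1% (30.3% to 36.0%), 44.8% (41.0% to 48.7%) and 58.0% (54.8% to 61.2%) of the 3 classes in that order. The variance divided by the mean, which is 1 for pure counting noise, was 2.99 in proximal luminal-like, 1.96 in distal luminal-like and 1.54 in basal-like cells. The ventral values were 1.68, 1.74 and 1.36. The proximal luminal-like value of the proximal library was 4.15 with members and pathway genes used for clustering, and 1.94 and 6.05 at 1000 and 5000 UMIs. The basal-like value of the proximal library was 2.78 with the highest doublet scores removed, and 1.39 and 2.74 at these depths. That of ventral distal luminal-like cells was 1.38 without 1 cell and 2.62 with totals without the 20 most abundant genes, and 1.34 and 2.74 at these depths. At 2000 UMIs the ratio was 2.30 in fibroblast-like, 4.34 in endothelial-like and 11.0 in macrophage-like cells of the proximal library. This ratio grows with the mean, so classes with more member RNA reach higher values at the same relative spread.

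Proximal luminal-like cells of the proximal library formed the longest upper tail among the named epithelial classes of this library: 19 of 1080 cells held 10 or more member UMIs of 2000, against 1 of 667 distal luminal-like and 1 of 922 basal-like cells. The highest held 17. The unnamed cluster led by haemoglobin genes, in which 11 proximal luminal markers were found, had 9 of 268 cells at 10 or more and a highest value of 20. Of 1459 ventral distal luminal-like cells 1 passed 10, with 22. The top 5% of cells held 26.6% (24.6% to 28.7%) of the class's member UMIs in proximal luminal-like, 25.4% (22.3% to 28.7%) in distal luminal-like and 28.6% (25.0% to 32.5%) in basal-like cells, and 26.8% (24.0% to 29.7%) in ventral distal luminal-like cells. These shares overlap in their intervals, and counting noise raises the share where the mean is low.

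**Figure D4:**
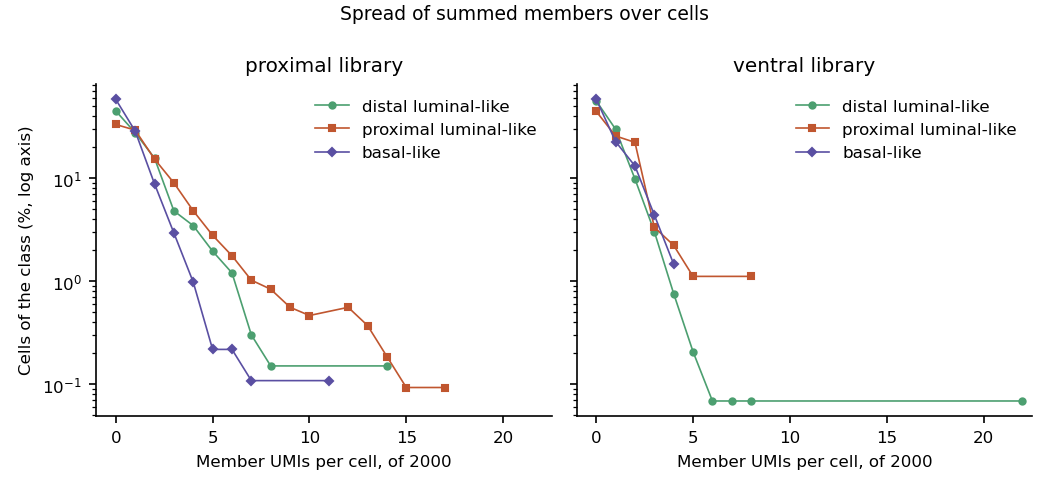
Share of cells (percent, log axis) by number of member UMIs after thinning each cell to 2000 UMIs, for 3 epithelial classes in the proximal (left) and ventral (right) library; numbers of UMIs that no cell had are not drawn. Proximal luminal-like cells of the proximal library reach 17 of 2000 and have 19 cells at 10 or more; 1 ventral distal luminal-like cell reaches 22.

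To see which members were high in the same cells, each member was compared, at full depth, between the 5% of cells highest in all other members and the remaining cells. In proximal luminal-like cells of the proximal library, these 54 of 1080 cells had 23 of 31 members at least 2-fold higher, and 0 at least 2-fold lower. Among 12390 genes outside the list the share at least 2-fold higher in the top 5% by all members was 0.371%. The median log2 ratio of members was 1.52, beside 0.01 for the other genes. The median depth was 19250 UMIs in the top cells and 19963 in the others. The top cells came from every proximal luminal-like cluster, from 3.75% (1.89% to 6.62%) of the Arl14 cluster to 12.0% (5.64% to 21.6%) of the Prol1 cluster.

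Ifit3 was the most concentrated member in these cells, at 185 CPM with a UMI in 44 of 54 of them and at 10.5 CPM in the others, a ratio of 17.7. Its copy Ifit3b had a ratio of 13.6, the nucleic acid sensor Zbp1 11.9, Ifi44 9.88 and Ifit1 9.18. Isg15 was at 517 against 60.6 CPM, and Irf7, with a UMI in 52 of 54 top cells, at 545 against 89.2. These values did not rest on 1 cell each: without the top cell holding most of the gene's UMIs, the ratios of Ifit3, Isg15 and Irf7 were 16.4, 7.72 and 5.92. Ifit1 moved to 6.33. The RNA sensor Ifih1 did rest on 1 cell, which held 147 of its UMIs, and its ratio of 10.4 became 3.12 without that cell. Bst2 was at 364 against 61.5 CPM and Stat2 at 42.1 against 10.3. Other members were less unequal: Ifi27 was at 129 against 89.3 CPM, Trim25, a ubiquitin ligase of the RNA sensor pathway, at 58.0 against 32.4, and Samd9l at 38.9 against 17.9. Irf1 was at 54.4 against 37.1 CPM, and at 35.6 without 1 cell. Thus Irf7 and Isg15 were high in the same few cells, whereas Ifi27 and Irf1 followed the other members less.

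Genes of the pathway outside the list, which played no part in choosing the cells, were also high in these cells of the proximal luminal-like class. Of 40 further interferon-induced genes with at least 50 UMIs, 20 were at least 2-fold higher and 0 lower. Ifitm3, a membrane protein that blocks viral fusion, was at 1402 against 224 CPM, the chemokine Cxcl10 at 279 against 44.6, and Ifi27l2a at 146 against 23.5. Ddx58, which encodes the RNA sensor RIG-I, was at 55.7 against 16.3 CPM. In all, 22 of the 46 genes outside the list that were at least 2-fold higher belonged to the 69 pathway genes tested. In the top cells of other classes the further interferon-induced genes at least 2-fold higher were 4 of 41 in distal luminal-like and 3 of 24 in basal-like cells of the proximal library, 2 of 35 in ventral distal luminal-like cells, and 15 of 31 in fibroblast-like and 8 of 20 in endothelial-like cells of the proximal library, the last with 3 top cells and 3 genes lower. Their sum in basal-like cells was 5109 against 2488 CPM. Of the 42, 58 and 14 genes outside the list at least 2-fold higher in the first 3 of these classes, 4, 4 and 2 were pathway genes. The top cells were not set apart equally well in each class. After thinning, the lowest number of member UMIs in a top cell was 6 in proximal luminal-like and 4 in distal luminal-like cells of the proximal library. It was 2 in basal-like and in ventral distal luminal-like cells, 7 in fibroblast-like and 20 in endothelial-like cells. Counting noise weighs more in the choice of cells where this number is low, so the counts of the classes are not directly comparable. In the proximal luminal-like top cells, receptor genes summed to 99.2 against 85.9 CPM, with 0 of 6 at least 2-fold higher. Immediate-early and heat-shock genes, which respond to tissue dissociation, summed to 17920 against 14097 CPM, with 0 of 15 at least 2-fold higher, and a list of NF-kB-type genes to 659 against 682 CPM. Distal luminal markers summed to 1899 against 5466 CPM, with 1 of 12 at least 2-fold higher and 2 lower, but their median over single cells was 2097 in the top cells and 1777 in the others. Erythroid markers summed to 3.57 against 37.6 CPM, with a median over single cells of 0 in both and a highest value of 35005 among the others. Macrophage markers summed to 35.0 against 26.9 CPM, ranging from 0 to 347 in single top cells and from 0 to 488 in the others, with C1qb, C1qc, Csf1r, Adgre1 and Lyz2 at 0 in the top cells. Endothelial markers summed to 268 against 324 CPM, with 5 of 8, Cdh5 and Kdr among them, at 0 in the top cells, and all 9 T or NK markers were at 0 there.

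**Figure D5:**
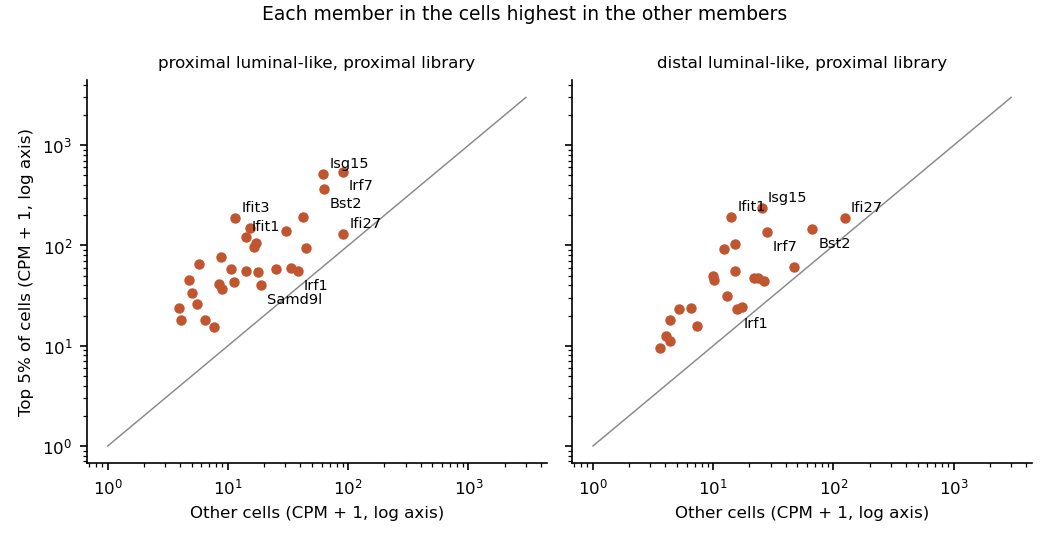
Level of each member (CPM + 1, log axes) in the 5% of cells highest in the other members against its level in the remaining cells, for proximal luminal-like (left) and distal luminal-like cells (right) of the proximal library; the line marks equal levels and members with at least 50 UMIs are drawn. On the left Ifit3 (185 against 10.5 CPM) lies far above the line and Irf1 and Ifi27 near it; on the right Ifit1 (192 against 13.1 CPM) lies far above it.

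In distal luminal-like cells of the proximal library Ifit1, Isg15, Ifih1 and Irf7 were again among the members with the largest differences in the top cells. Of 24 members, 12 were at least 2-fold higher in the top 5%, 34 of 667 cells, against 0.346% of other genes. Ifit1 was at 192 against 13.1 CPM, a ratio of 14.7 that became 8.08 without 1 cell holding 217 of its UMIs. Isg15 was at 235 against 24.3 CPM and Rsad2 at 91.6 against 11.3, and at 170 and 62.0 CPM without the highest cell of each gene. Ifih1 was at 102 against 14.2 CPM, and its ratio of 7.18 became 3.74. Irf7 was at 135 against 26.9 CPM. Ifit3, with 40 UMIs in the class, had too few to be compared. Sbp and Spink1 were also higher in these cells, at 229753 against 95544 and 115921 against 51181 CPM, while 4 of the 12 distal luminal markers were at least 2-fold lower. The median depth was 74572 against 49153 UMIs, and 18 of the 34 cells came from the cluster led by Sbp and Spink1. Erythroid markers summed to 2.04 against 65.6 CPM, with 3 of 5 at least 2-fold lower and a median over single cells of 0 in both. Plasma cell markers summed to 60.5 against 120 CPM, and immediate-early and heat-shock genes to 10985 against 14554. The part of these differences in the result was not tested. In ventral distal luminal-like cells the distal luminal markers summed to 465299 CPM in the top cells and 465267 in the others, though 1 of the 9 compared was at least 2-fold higher and 3 were lower. The leading members were again Isg15 (85.7 against 4.14 CPM), Oasl1 (32.6 against 2.63, or 20.9 without 1 cell), Ifit1 (81.7 against 8.85) and Rsad2 (82.6 against 9.52). There 6 of 23 members were at least 2-fold higher, against 0.131% of other genes.

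In basal-like cells of the proximal library, 18 members had at least 50 UMIs. Of these, 6 were at least 2-fold higher in the top 47 of 922 cells, against 0.556% of other genes. The cluster led by Trp63 gave 18 of the 47, which is 10.3% of its cells, and the other basal-like clusters 3.23% and 4.20% of theirs. Isg15 was at 152 against 17.3 CPM, Bst2 at 85.1 against 10.4, Irf7 at 74.9 against 20.4 and Usp18 at 36.2 against 9.49. Bst2 was at 54.2 CPM without 1 cell. The other 16 members had fewer than 50 UMIs and were not compared. Irf1 was at 79.0 against 49.1 CPM and Trim25 at 28.7 against 28.8, so Trim25 was even in this class. Fibroblast markers summed to 2027 against 1261 CPM in these cells, from 0 to 11029 in single top cells and from 0 to 10669 in the others, with 4 of 7, Col1a2 and Pdgfra among them, at 0 in the top cells. Smooth muscle markers summed to 71.9 against 18.5 CPM, from 0 to 1826 in single top cells and from 0 to 1263 in the others, with 4 of 6, Myh11 and Des among them, at 0. Proximal luminal markers summed to 4031 against 6468 CPM and periurethral or urothelial markers to 650 against 1348. Their part in the result was not tested.

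Transcripts of the ligands were scarce. No UMI of Ifnb1, Ifna1, Ifna4, Ifna5 or Ifnl3 was found in kept cells of either library, and Ifnab, a further type I gene, had 12 in proximal luminal-like and 7 in distal luminal-like cells of the proximal library. Ifng had UMIs in T or NK-like cells alone among the named classes, at 219 CPM (161 to 291) in the proximal and 43.3 (24.8 to 70.4) in the ventral library. Ifne, a type I interferon of epithelia, had 78 UMIs in proximal luminal-like cells of the proximal library, 2.50 CPM (1.98 to 3.12), 19 in basal-like and 4 in distal luminal-like cells. None of its UMIs was in the top cells of the proximal luminal-like class.

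Receptor genes were ordered differently from the member sum. Ifnlr1, the chain specific to type III interferon, stood at 8.75 CPM (7.74 to 9.85) in proximal luminal-like, 9.97 (8.31 to 11.9) in basal-like and 2.80 (2.26 to 3.42) in distal luminal-like cells of the proximal library. Ifnar1, of the type I receptor, was at 4.23 (3.54 to 5.01), 4.99 (3.83 to 6.38) and 5.36 (4.60 to 6.20) CPM in the same order, with overlapping intervals. Ifngr2, of the interferon gamma receptor, was at 9.93 and 8.78 CPM in proximal luminal-like and basal-like cells and at 28.6 in distal luminal-like cells. Jak2, a kinase of the interferon gamma receptor, was at 52.7 CPM in proximal luminal-like and 11.1 in distal luminal-like cells. Ifitm3 favoured the basal-like class over the proximal luminal-like one, at 929 against 277 CPM in the proximal library, where most members were lower, and at 1873 against 140 in the ventral library. Cxcl10 was higher in basal-like cells of both libraries too, at 490 against 55.1 and 267 against 3.71 CPM. Psmb8, a subunit of the immunoproteasome, followed the members, at 11.1 against 65.4 CPM in the proximal library. Of the 104 pathway genes in the files 74 could be compared between luminal classes of that library, and 9 were at least 2-fold higher in proximal luminal-like cells, against 9.41% of all genes, and 1 lower, against 4.35%. For basal-like over proximal luminal-like cells, 3 of 71 were higher, against 3.87%, and 7 lower, against 3.23%.

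Among genes outside the list found in at least 5% of cells, the one most like the member sum over single cells was Ifitm3 in proximal luminal-like cells, and it shared the highest value in the other 2 classes examined. Pearson's r between log values at 2000 UMIs was 0.41 over 1080 proximal luminal-like cells, 0.14 over 922 basal-like cells of the proximal library and 0.11 over 1459 ventral distal luminal-like cells. Nfia in basal-like and Rnf115 in ventral distal luminal-like cells had the same values to 2 decimals. In proximal luminal-like cells the next were Rnf213 (0.21), H2-T23 (0.21), H2-D1 (0.19) and H2-K1 (0.18), the last 3 being class I histocompatibility genes. The points share a library and a depth, cells are not replicates, and values this low in sparse counts are given as a ranking only. Among the pairs of members compared in proximal luminal-like cells, relations were weak, the highest pair being Irf7 and Bst2 at 0.23. Only some members were paired, and Ifit3, Ifit3b, Ifit1, Zbp1 and Ifi44 were not among them.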

How the data were processed

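Single-cell libraries of dissociated prostate were made with 10x Genomics 3′ kits. The deposited matrices give unnormalized UMI counts for each gene in each barcode, made by the authors with Cell Ranger 7.0.0 against build mm10, per the submitters' processing notes. The annotation version is not given in the sources used here. The members and lists were chosen with earlier results of these data known.

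Barcodes with fewer than 500 genes or over 10% mitochondrial UMIs were removed. Each library was clustered alone without members and pathway genes (2000 variable genes, 30 principal components, 15 neighbours, Leiden resolution 1) in Python 3.11.15 (scanpy 1.11.5, scipy 1.17.1, igraph 0.11.9). Markers of 21 cell classes gave the cluster names. The doublet caller marked 11 of 5704 cells, which were removed.

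UMIs were summed per class and given as CPM with exact Poisson intervals, ratios with exact conditional intervals and shares with Clopper-Pearson intervals. Genes needed 50 UMIs in both sums together to be compared, and 2-fold was counted on log2(CPM + 10). The steps were tested on simulated data. Of the members, the 10 with the most UMIs could be named in full, and up to 6 members and 5 pathway genes per direction and comparison. Values without the cell holding most UMIs of a member were added after seeing the data. With 1 library per group no test was made.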

Additional observations from a re-analysis of the deposited data

Results flagged for a closer look

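Oasl2, a relative of the oligoadenylate synthetases, differed in opposite directions between basal-like and proximal luminal-like cells of the 2 libraries. The ratio of basal-like over proximal luminal-like CPM was 2.65 (1.27 to 5.67) in the ventral library, from 20 and 14 UMIs, and 0.480 (0.412 to 0.558) in the proximal library, from 208 and 1070 UMIs. The difference between the libraries was not tested, and the effects of region and of kit cannot be told apart.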

How the results depend on the processing

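Of 152 alternative values for 24 results, 99 stayed within the counting error of the reported value, or within 1.5 times a reported count, 52 moved and 1 reversed. No paired analysis was possible because each group has 1 library. The values below are log2 ratios of member sums. Some settings also changed which cells a class held, and the cause of a shift was not tested. The ratio of proximal luminal-like over distal luminal-like cells in the proximal library, 0.51, was 0.24 with a looser cell filter (200 genes, 20% mitochondrial UMIs), 0.44 with the highest doublet scores removed, 0.26 at resolution 0.5 and 0.54 with members and pathway genes used for clustering. It was 0.16 with totals without the 20 most abundant genes, 0.75 without Ifi27, Bst2 and Isg15, 0.54 with 5% free RNA subtracted, and 0.57 without the top 5% of cells, an alternative chosen after seeing the data. The ventral ratio, 0.51, was 0.64 with the looser filter and with doublet scores removed, 0.32 with cells named one by one, 0.78 without the 3 members and 0.66 without cells of over 5% Sbp and Spink1, and it reversed to -0.16 with totals without abundant genes. Basal-like over proximal luminal-like cells in the proximal library, -1.42, ranged over -1.19 (looser filter), -1.33 (doublet scores), -1.21 (resolution), -1.48 (clustering genes), -1.58 (cell names), -1.31 (without the 3 members) and -1.54 (free RNA). The ventral value, -0.36, was -0.67 without abundant genes in the totals and 0.00 without the 3 members. Class sizes changed too, counted here after thinning. The 1080 proximal luminal-like cells of the proximal library became 666 with the looser filter and 718 with doublet scores removed. They became 552 at resolution 0.5, 791 with the clustering genes and 1005 with cells named one by one. Ventral distal luminal-like cells, 1459, became 454 with cells named one by one and 1696 at resolution 0.5. Basal-like cells of the proximal library, 922, became 705 with cells named one by one.

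Proximal over ventral library in proximal luminal-like cells, 0.91, was 0.55 with the looser filter, 0.70 with doublet scores removed, 0.66 at resolution 0.5, 1.11 with cells named one by one, 0.62 without abundant genes in the totals and 0.76 without cells high in Sbp and Spink1. In distal luminal-like cells, 0.91, it was 0.95 with the looser filter, 0.98 with the clustering genes, 0.31 without abundant genes, 1.00 without the 3 members and 0.83 without the top 5% of cells. In basal-like cells, -0.15, it was -0.34 without the 3 members. The share of member UMIs in the top 5% of cells was 29.3% with the clustering genes in proximal luminal-like cells. In basal-like cells it was 33.8% with doublet scores removed and 36.2% at 1000 UMIs, and in ventral distal luminal-like cells 24.0% without abundant genes, 37.1% without the 3 members and 36.0% at 1000 UMIs. The subtraction of free RNA and the removal of the top cells were not run for these shares.

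With 1 CPM in place of 10 added before the log, members at least 2-fold apart became 14 higher and 1 lower of 32, against 20.5% and 12.7% of all genes (proximal luminal-like over distal luminal-like, proximal library), 9 and 1 of 24, against 29.4% and 2.78% (ventral), and 23 lower of 32, against 9.18% (basal-like over proximal luminal-like, proximal library). For proximal over ventral they became 16 and 1 of 32, against 26.6% and 12.7% (proximal luminal-like), 5 and 1 of 19, against 32.1% and 15.7% (basal-like), and 11 higher of 27, against 30.1% (distal luminal-like). Without abundant genes in the totals, the ventral luminal comparison had 0 higher and 1 lower of 24, against 5.19% and 1.97%. Among the epithelial classes compared, depth limits the ventral proximal luminal-like and basal-like ones most, where many members had under 10 UMIs.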
